A study of Mus musculus with 8 samples.

Results

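The oligosaccharyltransferase is the enzyme complex of the endoplasmic reticulum (ER) that attaches N-linked glycans to newly made proteins. Its genes were taken from the deposited table by symbol: Rpn1, Rpn2, Ddost, Dad1, Stt3a, Stt3b, Ostc and Tmem258. All 8 were found among the 54427 genes listed. The values came from RNA sequencing of primary pancreatic acinar cells of wild-type mice, isolated with collagenase and given 1 µM cholecystokinin octapeptide (CCK), a secretagogue that injures acinar cells at high doses, for 6 h. The 4 libraries titled AP carried this injury, and the 4 titled AP_OCA carried it with OCA. The labels do not spell OCA out; the abbreviation is in common use for obeticholic acid, a drug that activates the nuclear receptor FXR. The treatment text gives 2.5 µM OCA in the same words for all 8 libraries, so the split into groups rests on the titles. Every library shared the CCK injury, no uninjured cells were analysed here, and the labels do not say whether replicates came from separate mice, so p-values measure only the spread between these samples.

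N-glycosylation begins when a glycan built on the lipid dolichol is moved as a block onto an asparagine of a growing polypeptide. The catalytic subunit is either STT3A or STT3B. STT3A complexes sit at the protein translocon and act while the chain is being threaded into the ER, and STT3B complexes modify sites that were passed over. The other subunits are shared by both kinds of complex or belong to a single kind. Acinar cells make more secretory protein than almost any other cell, and this machinery stands at the point of entry into their secretory pathway.

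Acinar identity was clear in all libraries. The 12 acinar marker genes made up between 45.7% and 47.5% of summed values in AP and between 40.9% and 46.2% in AP_OCA, with none at 0. The lowest share was that of AP_OCA replicate 2, where 2 of the 12 lay more than 2-fold below all 7 other libraries. AP_OCA replicate 2 stood apart: its 12 lymphocyte markers summed to 12838 CPM, against 22.7 to 76.9 in the other 7 libraries, where Cd3e and Cd2 were at 0, and its islet markers summed to 9.11 against 516 to 2170. CPM here is the deposited value taken off its log2 scale and rescaled to a sum of 1000000 per library; the libraries share nearly a single distribution of values, so a CPM is a position in that distribution and total reads are unknown. Low values came in tied steps, as counts of whole reads would, and the third step, read as a count of 3, lay at 0.206 to 0.313 CPM in 7 libraries and at 0.000455 in AP_OCA replicate 2. The lowest value of any of the 8 genes was 8.92 CPM, well above those steps. Results are given with all 8 libraries and without AP_OCA replicate 2.

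The small subunits Dad1, Ostc and Tmem258 stood higher in every AP_OCA library than in every AP library, whereas the large core subunits Rpn1, Rpn2 and Ddost overlapped between groups. None of the 8 passed the test in either comparison. With all 8 libraries 0 of 8 passed limma at an adjusted p under 0.05, where 0% of 11311 genes passed. An unadjusted p under 0.05 was reached by 3 of 8, all higher in AP_OCA, against 16.2% of all genes, made up of 7.31% higher and 8.87% lower. Without AP_OCA replicate 2 again 0 of 8 passed, where 2.44% of 10894 genes passed (0.854% higher and 1.59% lower). The same 3, Dad1, Ostc and Tmem258, had an unadjusted p under 0.05, against 25.7% of all genes (11.8% higher and 13.9% lower). Groups did not overlap, with AP_OCA higher, for 4 of 8 in both comparisons (Dad1, Stt3b, Ostc and Tmem258), against 6.75% of genes with all 8 libraries and 11.1% without AP_OCA replicate 2. None of the 8 lay apart in the lower direction, where 8.57% and 12.1% of genes did. The median log2 fold change of the 8, AP_OCA over AP, was 0.20 in both comparisons, against -0.01 and 0.00 over all genes tested, with a range over the 8 from -0.20 to 0.87 with all libraries and from -0.25 to 0.73 without AP_OCA replicate 2. In such bulk samples fewer cells of a type and less RNA per cell cannot be told apart.

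**Figure D1:**
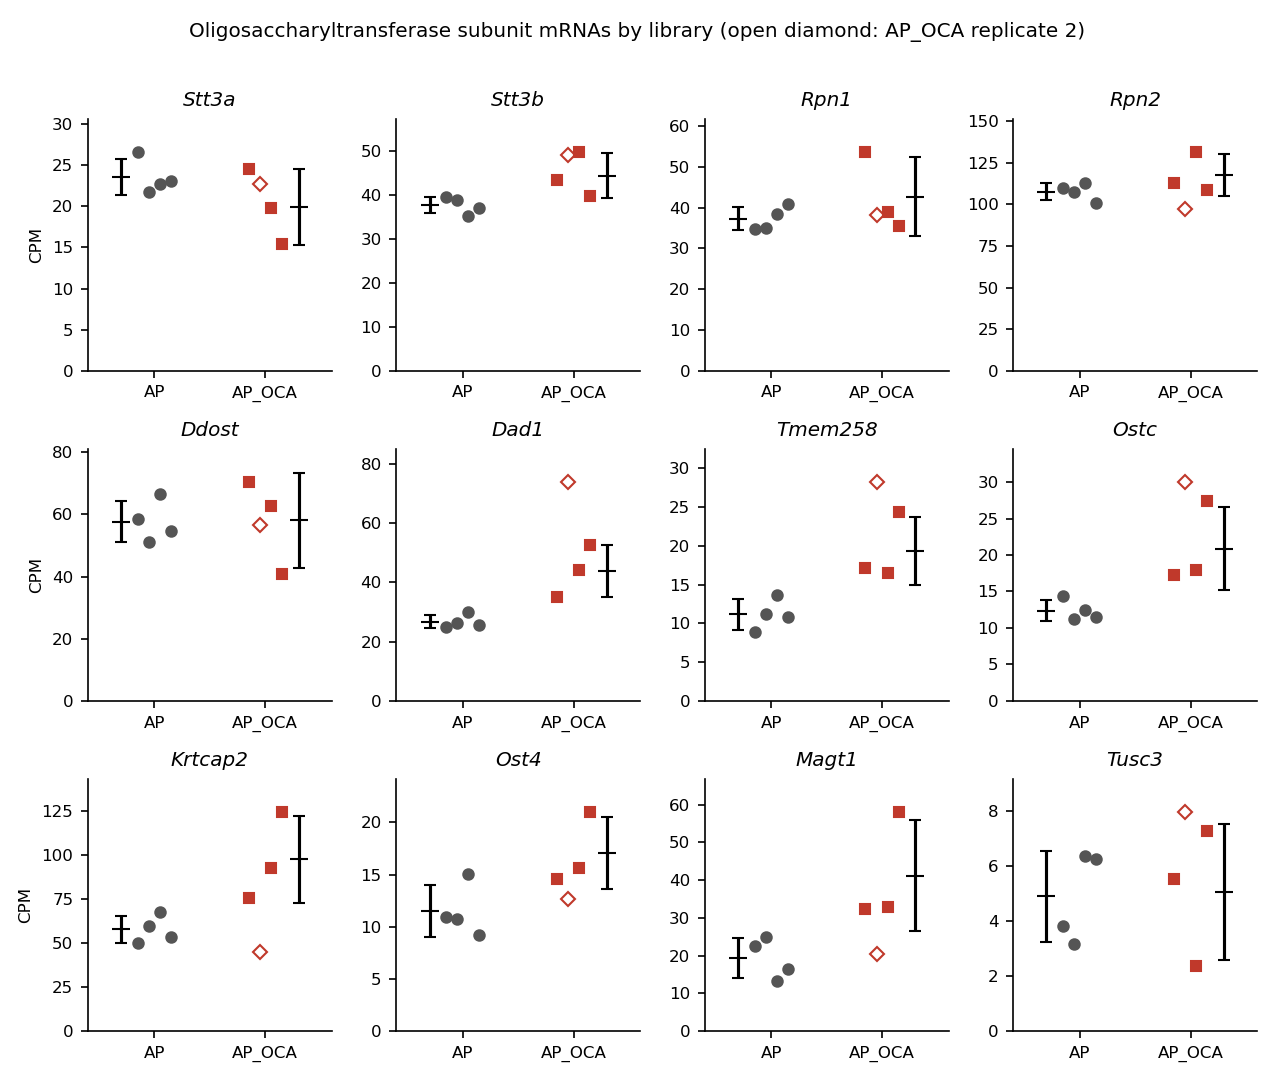
Level of each subunit mRNA in CPM (vertical axes, each starting at 0) in the 4 AP libraries (grey circles) and the 4 AP_OCA libraries (red squares, with AP_OCA replicate 2 as an open diamond). Bars give mean ± SD of the 4 AP libraries and of AP_OCA replicates 1, 3 and 4. For Dad1, Stt3b, Ostc and Tmem258 all red symbols lie above all grey symbols.

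The catalytic subunits had fold changes of opposite sign, and neither passed the test. Stt3a lies on chromosome 9 (36729344 to 36767679 in GRCm38) and Stt3b on the same chromosome (115242581 to 115310421). Stt3a stood at 26.65, 21.7, 22.75 and 23.0 CPM in AP replicates 1 to 4, and at 24.6, 22.7, 19.8 and 15.4 in AP_OCA replicates 1 to 4. The groups overlapped, with AP_OCA replicates 3 and 4 below all AP libraries, and the log2 fold change was -0.20 ± 0.21 (SE) with all libraries and -0.25 ± 0.20 without AP_OCA replicate 2 (limma adjusted p = 0.625 and 0.439). Stt3b stood at 39.55, 38.8, 35.2 and 37.1 CPM in AP and at 43.4, 49.0, 49.8 and 39.8 in AP_OCA. Its groups did not overlap, but the lowest AP_OCA value barely exceeded the highest AP value. Its log2 fold change was 0.26 ± 0.19 and 0.23 ± 0.17 (limma adjusted p = 0.487 and 0.402).

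The ratio of Stt3b to Stt3a was above every AP value in 3 of the 4 AP_OCA libraries, and the groups overlapped. Stt3b CPM divided by Stt3a CPM was 1.48, 1.79, 1.55 and 1.61 in AP replicates 1 to 4 and 1.77, 2.16, 2.51 and 2.59 in AP_OCA replicates 1 to 4. AP_OCA replicate 1 lay just below AP replicate 2, and AP_OCA replicates 2, 3 and 4 lay above all of AP. The log2 ratio of Stt3a to Stt3b was lower in AP_OCA by 0.46 with all libraries (mean -1.12 ± 0.24 against -0.66 ± 0.11, SD, n = 4 each; two-sided exact permutation test, p = 0.0571, where the smallest possible p was 0.0286). The difference was -0.47 without AP_OCA replicate 2 (exact permutation p = 0.0571). This was the only ratio tested. With the trend of values with transcript length and GC content removed from each library, the difference was -0.88 with all libraries and -0.85 without AP_OCA replicate 2 (exact permutation p = 0.0286 for both, the smallest possible). The groups were then barely apart. The lowest AP and highest AP_OCA log2 ratios were -0.782 and -0.789 with all libraries, and -0.837 and -0.841 without AP_OCA replicate 2. The spread was also wider, with an SD of 0.32 in AP and 0.38 in AP_OCA with all libraries.

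**Figure D2:**
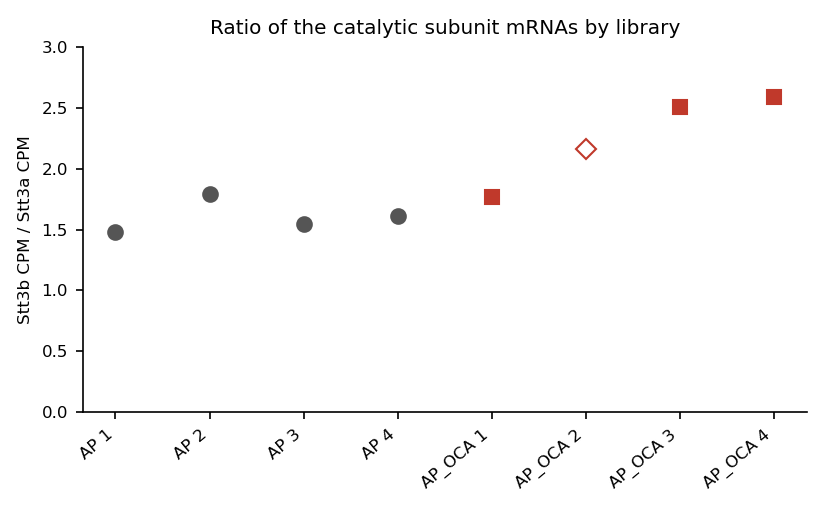
Ratio of Stt3b CPM to Stt3a CPM (vertical axis, starting at 0) in each of the 8 libraries (grey circles AP, red squares AP_OCA, open diamond AP_OCA replicate 2). The 4 AP libraries lie between 1.48 and 1.79 and the 4 AP_OCA libraries between 1.77 and 2.59.

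The large subunits of the core, Rpn1, Rpn2 and Ddost, did not pass the test, and their groups overlapped. RPN1 and RPN2, the ribophorins, and DDOST, also called OST48, are membrane proteins shared by all complexes. Rpn1 lies on chromosome 6 (88084482 to 88105304 in GRCm38), Rpn2 on chromosome 2 (157279017 to 157326319) and Ddost on chromosome 4 (138304730 to 138312628). Rpn2 stood between 100.8 and 112.6 CPM in AP (107.7 ± 5.08, SD, n = 4) and at 112.6, 97.1, 131.8 and 108.6 in AP_OCA replicates 1 to 4, with replicate 3 the highest of all 8. Ddost ranged from 51.2 to 66.5 CPM in AP and from 40.95 to 70.5 in AP_OCA, the lowest and the highest of all 8 values both being AP_OCA libraries. Rpn1 ranged from 34.9 to 40.8 CPM in AP, while AP_OCA replicate 1 stood at 53.7 and the other 3 at 35.5 to 38.8. The log2 fold changes without AP_OCA replicate 2 were 0.17 for Rpn1, with a 95% interval from -0.23 to 0.56, 0.12 for Rpn2 (-0.22 to 0.46) and -0.02 for Ddost (-0.45 to 0.41). With the length and GC trend of each library removed, as described with transcript length, the values were 0.35 for Rpn1 (0.04 to 0.66), 0.30 for Rpn2 (0.02 to 0.57) and 0.12 for Ddost (-0.21 to 0.44), still without passing (limma adjusted p = 0.202, 0.219 and 0.704).

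Dad1 encodes a small membrane subunit first known as defender against cell death, and it lies on chromosome 14 (54235479 to 54254104, minus strand). Dad1 stood at 24.9, 26.3, 30.1 and 25.7 CPM in AP replicates 1 to 4, and at 35.0, 74.0, 44.2 and 52.6 in AP_OCA replicates 1 to 4. All 4 AP_OCA libraries were above all AP libraries, with AP_OCA replicate 2 the highest at 2.77 times the AP mean and the other 3 between 1.31 and 1.97 times. The log2 fold change was 0.87 ± 0.26 with all libraries and 0.68 ± 0.18 without AP_OCA replicate 2 (limma adjusted p = 0.260 and 0.0591), so Dad1 did not pass in either comparison.

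Tmem258, a very small membrane subunit of both kinds of complex, lies on chromosome 19 (10204014 to 10207824). It stood at 8.92, 11.2, 13.7 and 10.8 CPM in AP and at 17.2, 28.3, 16.45 and 24.3 in AP_OCA, again with no overlap. The lowest AP_OCA value was 1.47 times the AP mean. Its log2 fold change was 0.87 ± 0.24 with all libraries and 0.73 ± 0.21 without AP_OCA replicate 2 (limma adjusted p = 0.260 and 0.0665).

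Ostc, also called DC2, is found in STT3A complexes, where it helps to hold the enzyme at the translocon, and its gene lies on chromosome 3 (130695912 to 130709444, minus strand). It stood at 14.3, 11.3, 12.4 and 11.5 CPM in AP and at 17.2, 30.1, 17.9 and 27.4 in AP_OCA. The groups were apart here too, with AP_OCA replicates 2 and 4 more than 2-fold above the AP mean (2.43 and 2.22 times). The log2 fold change was 0.82 ± 0.24 with all libraries and 0.69 ± 0.21 without AP_OCA replicate 2 (limma adjusted p = 0.260 and 0.0761). Leaving out AP_OCA replicate 1 as well brought Dad1 and Ostc past the threshold, with log2 fold changes of 0.83 and 0.80 (limma adjusted p = 0.0246 and 0.0497), in a fit where 8.92% of genes passed. Leaving out AP_OCA replicate 4 in its place gave 0.54 and 0.48 (limma adjusted p = 0.145 and 0.229). With a weight estimated for each library, Dad1, Tmem258 and Ostc passed both with all libraries (log2 fold change 0.68, 0.69 and 0.56; limma adjusted p = 0.0146, 0.0212 and 0.0452) and without AP_OCA replicate 2 (0.69, 0.66 and 0.54; limma adjusted p = 0.00452, 0.0126 and 0.0331), where 9.3% and 15.4% of all genes passed.

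**Figure D3:**
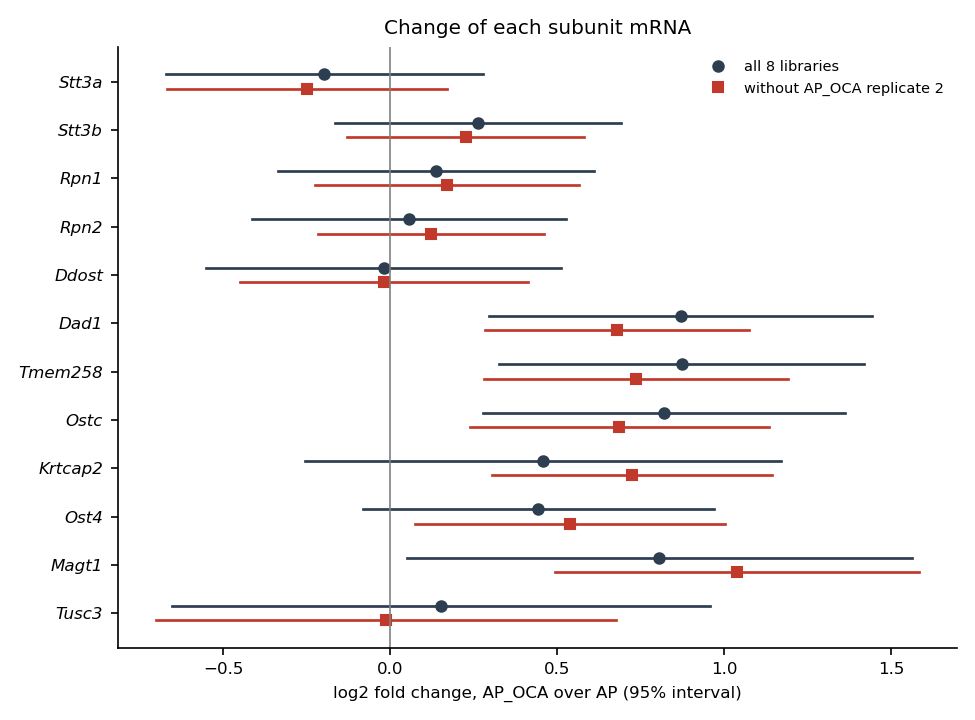
Log2 fold change of AP_OCA over AP (horizontal axis) with its 95% interval from limma for each subunit, with all 8 libraries (dark circles) and without AP_OCA replicate 2 (red squares). The intervals of Dad1, Tmem258, Ostc and Magt1 lie above 0 in both comparisons, before any adjustment for the number of genes tested, and those of Stt3a, Stt3b, Rpn1, Rpn2, Ddost and Tusc3 span 0.

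The complex has 4 further subunits outside the list of 8, namely Ost4, Krtcap2, Magt1 and Tusc3. In the reported fit without AP_OCA replicate 2, Magt1 rose and the other 3 did not pass, against 0.854% of genes called higher. In that with all 8 libraries none of the 4 passed. MAGT1 and TUSC3 are alternative thioredoxin-fold subunits of STT3B complexes that act on cysteine-containing acceptor proteins, and Magt1 lies on chromosome X (105968084 to 106011906, minus strand). Magt1 stood at 22.5, 24.9, 13.4 and 16.5 CPM in AP and at 32.4, 20.35, 33.0 and 58.1 in AP_OCA replicates 1 to 4. AP_OCA replicates 1, 3 and 4 lay above all AP libraries, and replicate 2 lay within the AP range. Magt1 rose from 19.3 ± 5.32 CPM (SD, n = 4) to 41.2 ± 14.7 (n = 3), a log2 fold change of 1.04 ± 0.25 (limma adjusted p = 0.0490). This call depended on single libraries and settings: it was kept in 6 of 12 other settings of the fit and in 1 of the 7 fits that left out a further library (log2 fold change 0.77 to 1.18, limma adjusted p from 0.0265 without AP_OCA replicate 1 to 0.130 without AP replicate 4), and with all 8 libraries the log2 fold change was 0.81 ± 0.34 (limma adjusted p = 0.294).

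Tusc3, the alternative to Magt1, was low and scattered, at 3.14 to 6.35 CPM in AP and 2.38 to 7.96 in AP_OCA, with a log2 fold change of -0.01 ± 0.32 without AP_OCA replicate 2. Krtcap2, also called KCP2, joins Ostc in STT3A complexes. It stood at 50.2, 59.8, 67.6 and 53.1 CPM in AP and at 75.3, 45.0, 92.3 and 124.4 in AP_OCA, so that AP_OCA replicate 2 was the lowest of all 8 libraries and the other 3 AP_OCA libraries were the highest. Its log2 fold change was 0.46 ± 0.32 with all libraries and 0.72 ± 0.20 without AP_OCA replicate 2 (limma adjusted p = 0.468 and 0.0587). Ost4, a minimal subunit that steadies the catalytic subunit in yeast, ranged from 9.22 to 15.1 CPM in AP and from 12.7 to 21.02 in AP_OCA (log2 fold change 0.44 ± 0.23 and 0.54 ± 0.22). Exons of Krtcap2 share 239 bases with Trim46 on the opposite strand and exons of Ost4 share 677 bases with Agbl5, and because it is not stated that counting used strand, part of these 2 values could belong to those neighbours, which stood at 0.947 to 23.8 CPM for Trim46 and 0.609 to 5.95 for Agbl5. Tmem258 shares 130 bases with Fen1 in the same way, but Fen1 stood at 0 to 0.219 CPM. With a weight estimated for each library, Krtcap2 and Magt1 passed with all libraries (log2 fold change 0.68 and 0.75, limma adjusted p = 0.0192 and 0.0253). Krtcap2, Magt1 and Ost4 passed with weights without AP_OCA replicate 2. In these fits 9.3% and 15.4% of all genes passed. Krtcap2 also passed with AP_OCA replicate 1 left out as well (limma adjusted p = 0.0217), where 8.92% of genes passed.

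Levels of the subunits differed widely per transcript length. In AP, CPM per kilobase of the shortest principal transcript was 49.2 ± 6.60 for Krtcap2, 39.1 ± 1.84 for Rpn2, 30.5 ± 2.61 for Dad1 and 27.2 ± 3.11 for Ddost (SD, n = 4), the last pair differing by about their spread. Ost4 followed at 19.9 ± 4.35 and Tmem258 at 18.4 ± 3.25, which did not differ beyond their spread, then Ostc at 11.6 ± 1.32, Rpn1 at 10.3 ± 0.783 and Stt3b at 8.92 ± 0.457. Magt1 (4.70 ± 1.29), Stt3a (4.01 ± 0.367) and Tusc3 (3.23 ± 1.09) were lowest and overlapped. Dad1 and Ost4 each have a second principal transcript of greater length, and with it their levels per kilobase would be lower. They would be 7.67 CPM for Dad1, below Stt3b, and 10 CPM for Ost4, close to Rpn1. The places of Dad1 and Ost4 in this order thus depend on the transcript chosen. Longer transcripts would change Magt1 and Tusc3 little, to 4.27 and 3.18 CPM.

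The subunits with higher values in AP_OCA were mostly those with short transcripts. The 5 subunits with transcripts under 1200 nucleotides (Ost4, Tmem258, Dad1, Ostc and Krtcap2) had log2 fold changes from 0.54 to 0.73 without AP_OCA replicate 2, and the 7 longer subunits had values from -0.25 to 1.04. Dad1 is placed here by its shortest principal transcript of 878 nucleotides; another principal transcript has 3491, which would put it among the longer ones, and its trend-removed value was not computed for that length. Over all genes tested, the 1479 with transcripts that short had a median of 0.37 and the longer ones a median of -0.06. Across the 12 subunits Spearman's rho of log2 fold change with length was -0.43, and across 10839 genes, which are not independent and share the same libraries, it was -0.33. After each library's trend with length and GC was removed, Dad1 had a log2 fold change of 0.43 ± 0.14, Tmem258 0.30 ± 0.16 and Ostc 0.28 ± 0.16 (limma adjusted p = 0.127, 0.303 and 0.351). Krtcap2 then had 0.54 ± 0.15 and Magt1, whose transcript is long, 0.78 ± 0.18 without passing (limma adjusted p = 0.0907 and 0.0560), while Ost4 had 0.10. In the same fit Rpn1 had 0.35 ± 0.14, Rpn2 0.30 ± 0.13, Stt3b 0.35 ± 0.13 and Stt3a -0.49 ± 0.22, and the median of the 8 was 0.30 against -0.00 over all genes. Rpn1 and Rpn2 then lay between Ostc and Dad1, and Ddost (0.12) lay below them. The contrast of small with large subunits was thus not kept for Rpn1 and Rpn2 in that fit. Whether the length trend comes from the libraries or from the cells was not tested.

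**Figure D4:**
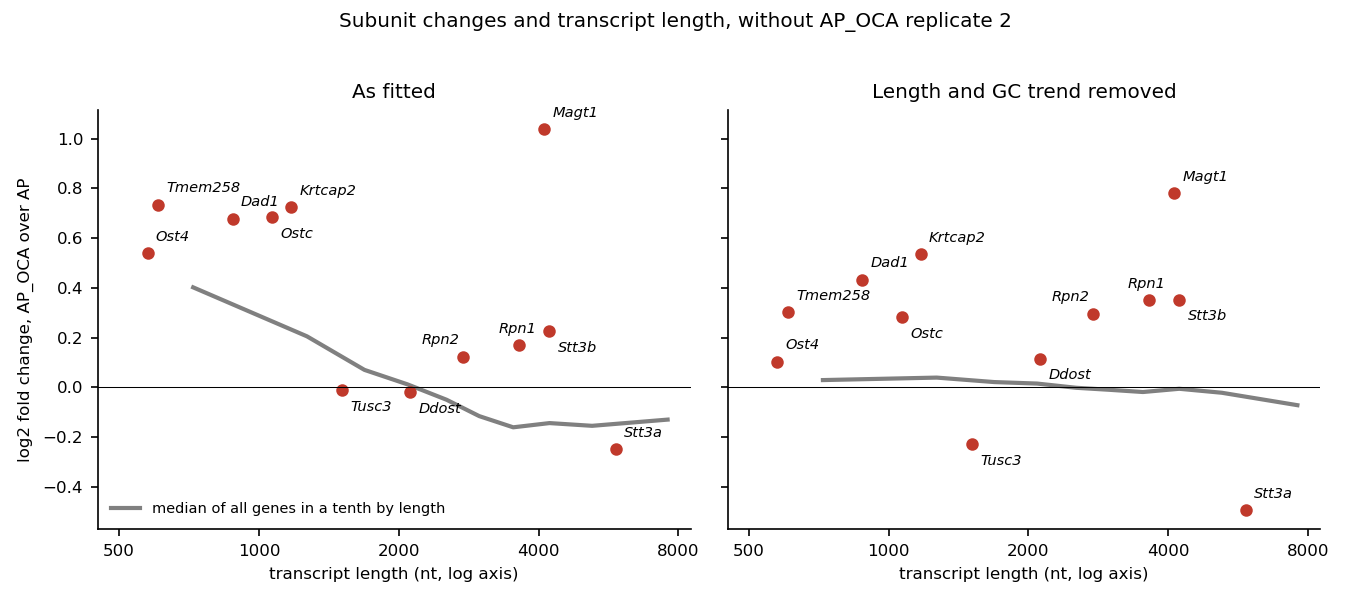
Log2 fold change of AP_OCA over AP without AP_OCA replicate 2 (vertical axis) against transcript length in nucleotides (horizontal log axis) for the 12 subunits (red points), as fitted (left) and with the length and GC trend of each library removed (right). The grey line joins the medians of all genes grouped into 10 bins by length; it falls from 0.40 to -0.13 on the left and stays within -0.07 to 0.04 on the right.

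Across libraries the 8 genes did not move as a single block. Over the 7 libraries other than AP_OCA replicate 2, Pearson's r on the log2 scale was 0.95 between Dad1 and Tmem258, 0.91 between Dad1 and Ostc and 0.85 between Ostc and Tmem258. Stt3a ran opposite to them, with r of -0.83 against Dad1, -0.80 against Tmem258 and -0.71 against Ostc, and sided with Ddost (0.72). Rpn2 ran with Stt3b (0.81). These values describe 7 libraries that include both groups, and the length and GC trend was not removed from them. Dad1, Tmem258 and Ostc have short transcripts (878, 606 and 1067 nucleotides) and Stt3a a long one (5867). The part of the trend in these correlations was not tested. Replicate scatter of the 8 was small in AP, with coefficients of variation from 4.71% for Rpn2 to 17.7% for Tmem258, and larger in AP_OCA replicates 1, 3 and 4, from 10.5% for Rpn2 to 27.3% for Ostc. The summed CPM of the 8 genes was 314.2 ± 13.5 in AP (SD, n = 4) and 366.8 ± 19.5 in those 3 AP_OCA libraries, and 395.8 in AP_OCA replicate 2.

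Promoter sequences from RefSeq (GRCm38.p6, 250 bases before to 50 bases after each start) were matched for 10 of the 12 subunits, 7 of them among the 8, with 13 starts in all. They were searched on both strands for CCAAT and CCACG separated by any 9 bases, a form of the ER stress response element. TGACGTGG, a sequence bound by XBP1 and ATF6, was searched for as well, and other forms were not. Neither occurred in any of the 13. Over all 32851 promoters of the table they occurred in 0.119% and 0.676%, so absence from 13 starts says little. The pieces CCAAT and CCACG were looked for after that result was seen. CCAAT was present in 8 of the 13, against 37.4% of all promoters, and CCACG in 9 of the 13, against 32.8%. At 1 of the 2 Krtcap2 starts, not printed here, ATTGG stood 1 base before CCACG. That arrangement was not searched for over all promoters. Below are the promoters of Dad1 and Tmem258 (the first of its 2 starts), whose groups did not overlap, of Magt1, which rose without AP_OCA replicate 2, and of Stt3a, which ran opposite to Dad1. Capitals mark CCAAT and CCACG on either strand, so ATTGG and CGTGG are their reverse complements.
Dad1 (chr14:54253880-54254179, minus strand): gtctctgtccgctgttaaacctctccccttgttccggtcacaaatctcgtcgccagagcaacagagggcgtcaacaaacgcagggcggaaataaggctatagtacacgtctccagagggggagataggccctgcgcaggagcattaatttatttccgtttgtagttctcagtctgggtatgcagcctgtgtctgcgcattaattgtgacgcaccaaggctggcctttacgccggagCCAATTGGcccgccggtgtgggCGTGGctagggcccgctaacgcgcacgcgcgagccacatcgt
Tmem258 (chr19:10203952-10204251, plus strand): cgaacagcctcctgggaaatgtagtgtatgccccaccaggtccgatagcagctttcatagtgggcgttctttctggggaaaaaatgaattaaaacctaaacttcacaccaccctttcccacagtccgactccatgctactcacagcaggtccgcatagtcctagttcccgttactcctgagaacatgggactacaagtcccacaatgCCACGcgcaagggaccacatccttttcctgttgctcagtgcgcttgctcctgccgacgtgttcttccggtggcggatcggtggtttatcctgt
Magt1 (chrX:106011753-106012052, minus strand): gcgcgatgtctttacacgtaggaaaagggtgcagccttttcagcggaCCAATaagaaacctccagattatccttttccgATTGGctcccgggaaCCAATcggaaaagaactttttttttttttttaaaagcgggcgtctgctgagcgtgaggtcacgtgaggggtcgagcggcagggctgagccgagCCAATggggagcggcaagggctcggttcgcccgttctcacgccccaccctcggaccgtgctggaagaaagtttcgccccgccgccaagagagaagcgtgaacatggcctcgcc
Stt3a (chr9:36767573-36767872, minus strand): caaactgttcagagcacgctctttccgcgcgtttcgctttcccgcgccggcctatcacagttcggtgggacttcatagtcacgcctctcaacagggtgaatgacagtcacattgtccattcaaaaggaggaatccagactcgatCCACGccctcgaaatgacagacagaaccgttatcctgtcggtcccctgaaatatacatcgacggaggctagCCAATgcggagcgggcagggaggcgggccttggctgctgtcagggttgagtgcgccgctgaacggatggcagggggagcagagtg

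The Dad1 promoter holds a palindromic CCAATTGG, which counts on both strands, followed by CGTGG, Tmem258 holds CCACG and no CCAAT, Magt1 holds 4 CCAAT and no CCACG, and Stt3a holds 1 of each. Of these, Dad1, with higher values in AP_OCA, and Stt3a, whose groups overlapped, held both pieces. Whether the pieces bear on the changes was not tested. Ostc and Tusc3 were not matched.

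Steps before and after the transfer of the glycan showed mixed directions. Of 23 genes that assemble the lipid-linked oligosaccharide, 21 were tested without AP_OCA replicate 2 and none passed; the median log2 fold change was 0.09, and 5 of the 21 had an unadjusted p under 0.05 with higher values and 1 with lower values, against 11.8% and 13.9% of all genes. Nus1, part of the enzyme that makes the dolichol chain, stood at 21.5 ± 2.89 CPM in AP (SD, n = 4) and 31.9 ± 4.90 in AP_OCA (n = 3), a log2 fold change of 0.54 ± 0.19, and Alg5, which makes dolichol-linked glucose, had 0.51 ± 0.20 (limma adjusted p = 0.102 and 0.133). Of the subunits of dolichol-phosphate mannose synthase, Dpm3 had 0.66 ± 0.29 with overlapping groups (limma adjusted p = 0.169). Dpm2, named after its values were seen, had 0.41 ± 0.19 without overlap (limma adjusted p = 0.192). The catalytic Dpm1 had -0.76 ± 0.33 (limma adjusted p = 0.164), but it was at only 1.66 ± 0.582 CPM in AP and in AP_OCA replicate 3 lay below the value of 3 counts. Among 9 tested genes of sugar nucleotide supply none passed and the median was 0.30. The phosphomannomutases Pmm1 and Pmm2 had 0.67 ± 0.21 and 0.30 ± 0.21, Gfpt1, the entry enzyme of the hexosamine pathway, had 0.43 ± 0.30, and Ugp2, which makes UDP-glucose, had 0.40 ± 0.23. With the trend removed, Nus1 had 0.35, Alg5 0.25, Dpm3 0.26, Dpm1 -1.10, Pmm1 0.64, Pmm2 0.18, Gfpt1 0.36 and Ugp2 -0.00031. The groups of Pmm1 did not overlap, with AP_OCA higher (limma adjusted p = 0.0802, and 0.0907 with the trend removed).

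Genes of glycan trimming and lectins, which act on the transferred glycan, centred near 0, with a median of 0.05 over 17 tested and none passing. Man1b1, an ER mannosidase, stood at 38.4 ± 4.92 CPM in AP (SD, n = 4) and at 32.2, 22.8 and 14.7 in AP_OCA replicates 1, 3 and 4, with 10.1 in replicate 2, all 4 below every AP library (log2 fold change -0.76 ± 0.23, limma adjusted p = 0.0773). Mlec, malectin, which binds the glucosylated glycan and associates with RPN1, stood at 156.3 ± 3.67 CPM in AP and at 130.5, 107.5 and 98.3 in AP_OCA replicates 1, 3 and 4, with 48.5 in replicate 2, again with no overlap (-0.49 ± 0.16, limma adjusted p = 0.0939). Mogs, the glucosidase of the first trimming step, had -0.50 ± 0.23, and Ngly1, the cytosolic enzyme that strips N-glycans from discarded proteins, had 0.54 ± 0.22. Values apart on the lower side were found for 12.1% of all genes in this comparison. Removing the length and GC trend brought Man1b1 to -0.45 ± 0.17, Mlec to -0.18 ± 0.12, Mogs to -0.15 ± 0.15 and Ngly1 to 0.29 ± 0.16 (limma adjusted p = 0.175, 0.443, 0.626 and 0.338).

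The translocon and signal peptidase genes, whose products stand beside the oligosaccharyltransferase, had a median log2 fold change of 0.58 over 15 tested. Of the 15, 14 were above 0, as were 5445 of all 10894 genes. Spcs1, a signal peptidase subunit, rose from 27.4 ± 1.72 CPM (SD, n = 4) to 50.7 ± 14.0 (n = 3), with a log2 fold change of 0.83 ± 0.20 (limma adjusted p = 0.0486), against 0.854% of genes called higher. This call was kept in 6 of 12 other settings of the fit and in 1 of the 7 fits that left out a further library. The other 14 did not pass, among them Sec61g, the small subunit of the channel (1.12 ± 0.28), the signal peptidase catalytic subunit Sec11c (0.74 ± 0.19) and Tram1 (0.61 ± 0.17), with limma adjusted p of 0.0513, 0.0553 and 0.0646. Groups did not overlap, AP_OCA higher, for 10 of the 15, against 11.1% of genes. Sec61a1, the channel itself, named after its values were seen, was the single gene of the list below 0 (-1.01 ± 0.47). After removal of the length and GC trend the 15 had a median of 0.31, and Spcs1 had 0.29 ± 0.13, Sec61g 0.54 ± 0.18, Sec11c 0.35 ± 0.14 and Tram1 0.34 ± 0.13 (limma adjusted p = 0.249, 0.140, 0.188 and 0.185). With all 8 libraries none of the 4 lists held a gene that passed, and the medians were 0.05 for lipid-linked oligosaccharide, 0.23 for sugar nucleotides, -0.20 for trimming and lectins and 0.52 for the translocon.

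**Figure D5:**
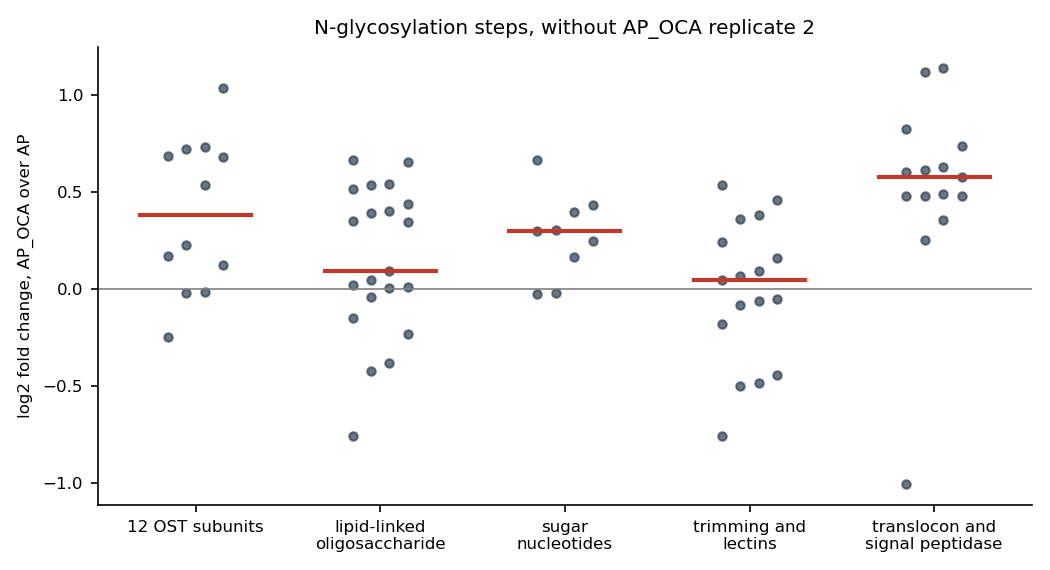
Log2 fold change of AP_OCA over AP without AP_OCA replicate 2 (vertical axis) of each tested gene (points) of the 12 oligosaccharyltransferase (OST) subunits and of 4 lists of neighbouring steps, with the list median (red line). Medians were 0.38, 0.09, 0.30, 0.05 and 0.58 from left to right.

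Genes whose pattern was most like the mean of the 8 were sought among 2564 genes that averaged 20 CPM or more, by Pearson's r over the 7 libraries other than AP_OCA replicate 2. The 8 highest were Creld2, an ER-resident protein (r = 0.98), the co-chaperone Fkbp5 (0.97), glutamine synthetase Glul (0.95), the translation factor Eif3l (0.95), the ribosomal protein gene Rps12 (0.95), Adi1 of methionine salvage (0.95), the cap-binding protein Eif4e2 (0.94) and the cold-inducible RNA-binding protein Rbm3 (0.94). With AP_OCA replicate 2 included, r remained above 0.9 for Fkbp5 (0.96), Rps12 (0.95) and Rbm3 (0.94). It was 0.80 for Glul and 0.74 for Eif4e2, and only 0.13 for Adi1, -0.03 for Eif3l and -0.05 for Creld2. Picking the highest of 2564 values over 7 libraries that include both groups favours high r. The members themselves had r from -0.56 (Stt3a) to 0.72 (Dad1) with the mean of the other members over those 7 libraries.

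Markers of some other cell types differed in summed level between the groups, and markers of others overlapped. Without AP_OCA replicate 2, the 8 stellate cell markers summed to 171 to 232 CPM in AP and 103 to 163 in AP_OCA, with 5 of 8 genes lower without overlap. The 8 endothelial markers summed to 72.3 to 89.4 and 35.1 to 63.1, with 2 genes lower and 1 higher without overlap. The 6 duct markers summed to 144 to 222 and 268 to 316, with 3 higher without overlap, although 2 of the 5 tested had fold changes below 0. Over all genes tested in this comparison, 11.1% lay higher without overlap and 12.1% lower. Sums overlapped for islet markers (516 to 2170 and 1255 to 1748 CPM), myeloid markers (105 to 190 and 116 to 132) and lymphocyte markers (33.1 to 76.9 and 22.7 to 45.5). In AP_OCA replicate 2, where Dad1, Tmem258 and Ostc were highest, all 12 lymphocyte markers exceeded the other 7 libraries by over 2-fold, as did 8 of the 10 myeloid ones. The part of these cells in the subunit values was not tested.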

How the data were processed

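RNA libraries were made with a SMARTER kit from total RNA, per the labels' protocols. The deposited values are log2 numbers, lowest at -6.64 (log2 of 0.01) and sharing their highest value, 20.57, in all 8 libraries; the normalisation is not given. The build was mm10, per the submitters' processing notes; the aligner, counter and annotation are not given in the sources used here. The log2 values were converted back from log2, less the 0.01, and divided so that every library summed to 1000000 (CPM). Total reads per library are unknown. Genes averaging 1 CPM or more entered limma 3.58.1 (R 4.3.3) as log2(CPM + 1), with trend and robust moderation and Benjamini-Hochberg adjustment over all genes, threshold 0.05; the pseudocount understates changes of low genes. The members, lists, tests and the fit without AP_OCA replicate 2 were chosen with earlier results of these data known. Named genes are the 12 subunits, up to 4 genes of lowest p without AP_OCA replicate 2 in each pathway list, and the 8 most similar genes. Coordinates, lengths and GC content came from GENCODE M21 (GRCm38), matched for 53749 genes, taking the shortest principal transcript. The length and GC trend was a loess surface per library (span 0.5). A tied step needed at least 5 genes. Alternatives changed the pseudocount, low filter, scaling, moderation, library weights, replicate block and length trend, and left out each library.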

Additional observations from a re-analysis of the deposited data

How the results depend on the processing

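Of 1233 values recomputed under other settings, 119 values that answer a comparison and 990 for single genes kept their direction and side of the threshold or, for counts and medians, stayed close to the reported value. Of the other single-gene values, 33 reversed sign, 42 came to pass and 24 ceased to pass. With all 8 libraries no gene passed in the reported fit, so a gene that kept its side there passed in neither fit. With all 8 libraries the count of genes passing was 1052 with library weights and ranged from 0 to 266 when 1 library was left out, the 266 being without AP_OCA replicate 2. Without AP_OCA replicate 2 the count of 266 became 156 with a pseudocount of 0.1, 0 with no filter on low values (limma; 2798 genes had an unadjusted p under 0.05 in the reported fit), 113 on the deposited log2 values, 13 with no variance trend, 1675 with library weights, 117 with the length and GC trend removed, and 7 to 973 when a further library was left out, highest without AP_OCA replicate 1. Of the 8 genes, 3 passed with library weights in each comparison, and 0 to 2 when a further library was left out. The median of the 8 with all libraries moved to 0.36 with the trend removed, and the log2 ratio of Stt3a to Stt3b to -0.88 and -0.85 (-0.57 to -0.39 when 1 of the 8 libraries was left out, passing without AP_OCA replicate 1). Replicate numbers were not shown to pair the samples: correlations of same-numbered deviations were -0.17, 0.03, 0.12 and -0.03. These deviations were taken from group means that include AP_OCA replicate 2, which stood apart, so they cannot settle whether samples were paired. With the replicate block 0 genes passed with all libraries and 559 without AP_OCA replicate 2 (52 with the block and the trend removed), the median of the 8 was 0.20 and 0.19 (0.36 and 0.31 with the trend removed), and none of the 8 passed.

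Some signs reversed. With all 8 libraries, library weights gave Ddost 0.16 and Tusc3 -0.25. Removing the trend, with or without the replicate block, gave Ddost 0.15 (from -0.02), Tusc3 -0.091, Ost4 -0.040 (from 0.44), Ugp2 -0.14 (from 0.30) and Ngly1 -0.13. Leaving out 1 library gave Ddost values from -0.12 to 0.13, Tusc3 from -0.013 to 0.46, Ngly1 from -0.068 to 0.54, Gfpt1 from -0.093 to 0.43 and Rpn2 from -0.023 to 0.12. Without AP_OCA replicate 2, Ddost was 0.16 with library weights, 0.12 with the trend removed and 0.082 with the block as well; Ugp2 was -0.00031 and -0.064 in those last fits; Tusc3 was 0.0066 with a pseudocount of 5; and leaving out a further library gave Ddost values from -0.18 to 0.21, Tusc3 values from -0.29 to 0.36 and Rpn1 values from -0.0047 to 0.29. The cause was not tested. Unknown read depth and 3 or 4 libraries per group limit the detection of small changes.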
